A study of Homo sapiens with 12 samples.

Results

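The FOXO transcription factor genes FOXO1, FOXO3 and FOXO4 and 7 genes known as FOXO targets (FBXO32, KLHL24, CCNG2, TXNIP, PDK4, SESN1 and BCL2L11) were followed through 12 RNA-seq libraries of EndoC-βH1 cells. These 10 genes are 10 of the 21508 Entrez gene IDs listed in any library and of the 15990 that passed the filter on low counts. They were picked because several of them were strongly lower after 1-AKP. Their 1-AKP values are therefore a description: how many of them passed a threshold is given beside the share of all genes, and nothing is read from it. The siRNA comparisons and the difference between the 1-AKP effects, which did not choose them, are tested. These tests share libraries with the 1-AKP comparisons, so they are not independent of the choice.

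EndoC-βH1 is an established human beta-cell line that makes insulin. Its cells were transfected by a lipid reagent with pre-designed siRNAs against TUNAR, a long noncoding RNA gene, or with a negative siRNA. After 2 days they received 1-AKP, described by the submitters as an inhibitor of the kinase GSK3, or its solvent DMSO. There were 3 libraries in each of 4 groups, with replicates 1 and 2 from passage 74 and replicate 3 from passage 75. The groups were TUNAR siRNAs with 1-AKP at 5 µM for 24 hours, TUNAR siRNAs with DMSO at 1:1000 for 24 hours, negative siRNA with 1-AKP at 5 µM for 24 hours, and negative siRNA with DMSO at 1:1000 for 24 hours. Every group was thus transfected, and all grew in medium with 5.5 mM glucose. All libraries come from 1 cell line. Replicate 3 is of another passage, and whether replicates 1 and 2 were separate cultures is not stated. A p-value here thus reflects the spread among these libraries, part of which may be technical. RNA per cell and the number of cells were not measured, and less RNA per cell cannot be told apart from fewer cells of one kind.

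FOXO proteins are transcription factors that insulin and growth-factor signalling holds in check: AKT and SGK kinases phosphorylate them, 14-3-3 proteins bind them, and they leave the nucleus. When that signalling is low they enter the nucleus and activate genes of catabolism, autophagy, cell-cycle arrest, stress defence and cell death, and also genes of the insulin receptor pathway itself. In beta cells FOXO1 is the best known of them and is linked to the response to metabolic stress and to keeping beta-cell identity. The mRNA level of a FOXO gene does not show how much of its protein is active or in the nucleus.

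FOXO proteins bind a core written TGTTTAC, and a variant written TGTTTTG occurs in genes that respond to insulin. Both were looked for, on both strands, in 15 RefSeq promoter windows of 9 of the 10 genes, each spanning 250 bases before to 50 after a transcript start on GRCh38.p14. FBXO32 was not searched. Of these windows, 4 held a match, 3 of the core and 1 of the variant, and they are printed here to show those letters near the start of a gene described below; capitals mark the match. The FOXO4 window is chrX:71095601-71095900 on the plus strand, and its core lies on the minus strand at bases 24 to 30 counted from the transcript start. The TXNIP window is chr1:145996530-145996829 on the minus strand, with the core on the opposite strand at -124 to -118. The BCL2L11 window is chr2:111120664-111120963 on the plus strand, with the core on the opposite strand at -223 to -217. The KLHL24 window is chr3:183635373-183635672 on the plus strand, with the variant at -32 to -26.
FOXO4: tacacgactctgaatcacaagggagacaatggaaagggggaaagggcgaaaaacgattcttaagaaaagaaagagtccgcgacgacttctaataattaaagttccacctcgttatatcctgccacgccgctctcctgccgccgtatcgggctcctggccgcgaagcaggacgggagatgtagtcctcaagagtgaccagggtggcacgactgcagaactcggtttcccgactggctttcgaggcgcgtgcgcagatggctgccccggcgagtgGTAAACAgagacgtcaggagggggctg
TXNIP: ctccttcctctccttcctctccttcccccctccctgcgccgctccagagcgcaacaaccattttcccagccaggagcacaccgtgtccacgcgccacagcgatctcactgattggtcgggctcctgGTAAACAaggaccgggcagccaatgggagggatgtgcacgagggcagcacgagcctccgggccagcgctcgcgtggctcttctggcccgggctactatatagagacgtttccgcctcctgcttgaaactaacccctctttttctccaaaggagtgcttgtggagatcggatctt
BCL2L11: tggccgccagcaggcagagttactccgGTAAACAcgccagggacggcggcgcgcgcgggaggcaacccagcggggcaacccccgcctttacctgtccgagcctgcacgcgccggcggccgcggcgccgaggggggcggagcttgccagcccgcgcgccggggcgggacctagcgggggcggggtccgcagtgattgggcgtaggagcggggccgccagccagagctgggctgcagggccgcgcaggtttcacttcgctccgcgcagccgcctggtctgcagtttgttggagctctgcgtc
KLHL24: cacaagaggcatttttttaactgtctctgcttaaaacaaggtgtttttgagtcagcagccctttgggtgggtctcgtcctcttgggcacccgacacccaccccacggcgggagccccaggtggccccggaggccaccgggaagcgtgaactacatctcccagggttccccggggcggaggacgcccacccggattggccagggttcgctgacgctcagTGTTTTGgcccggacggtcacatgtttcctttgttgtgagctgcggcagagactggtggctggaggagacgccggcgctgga
The core was present in 3.42% of all 35116 windows and in 2.67% of the 17878 windows of genes that were tested. The variant was present in 4.92% of all windows and in 3.74% of those of tested genes. A match describes these letters and is not evidence of binding.

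Library totals ranged from 15653786 to 15986834 expected counts, so depth was nearly equal. The 10 beta-cell markers summed to between 12100 and 16200 CPM (counts scaled to a common library size) in each library, with INS at 9210 to 12900 CPM. Markers of other islet cells summed to 4.31 to 34.8 CPM, nearly all of it SST, and the highest library of each group was replicate 1. The replicate 1 libraries stood apart from replicates 2 and 3 in all 4 groups, and results that rest on them are given with and without them. TUNAR itself averaged 34.5% of the negative-siRNA level in 1-AKP and 36.8% in DMSO. Its log2 fold change was -1.53 (SE 0.245) in 1-AKP and -1.44 (SE 0.263) in DMSO, with adjusted p-values of 0.159 and 0.248 in edgeR's quasi-likelihood test. In a fit that also held the replicate number they were 0.000674 and 0.00248.

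Per transcript length, FOXO1 was the most abundant of the FOXO genes in every group and FOXO4 the least. In FPKM, which also accounts for transcript length, FOXO1 was 16.42, 17.81 and 17.99 with TUNAR siRNAs and 1-AKP, and 19.61, 20.26 and 20.43 with TUNAR siRNAs and DMSO. The negative siRNA libraries had 15.01, 17.73 and 18.24 FPKM in 1-AKP, against 17.42, 19.68 and 19.60 FPKM in DMSO. FOXO4 lay between 0.43 and 0.77 FPKM in the 6 libraries with 1-AKP and between 1.60 and 1.93 FPKM in the 6 with DMSO. FOXO6, a further family member that is mostly known from the brain, was present at 8.29 to 9.45 FPKM in 1-AKP and 9.08 to 10.63 FPKM in DMSO. It was not among the chosen genes.

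The FPKM of the 4 FOXO genes summed to 33.8 ± 1.32 with TUNAR siRNAs and 1-AKP, against 41.4 ± 1.07 with TUNAR siRNAs and DMSO (SD, n = 3 each). With negative siRNA the sum was 32.9 ± 1.22 in 1-AKP, against 40.5 ± 0.474 in DMSO (SD, n = 3 each). FOXO1 made up 51.5% of the sum with TUNAR siRNAs and 1-AKP against 48.6% with TUNAR siRNAs and DMSO. With negative siRNA its share was 51.6% in 1-AKP against 46.7% in DMSO. FOXO4 made up 2.00% in 1-AKP against 4.26% in DMSO with TUNAR siRNAs, and 1.51% in 1-AKP against 4.15% in DMSO with negative siRNA. The family's mRNA was thus made mostly of FOXO1, FOXO6 and FOXO3, and the member with the largest relative difference was also the scarcest.

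**Figure D1:**
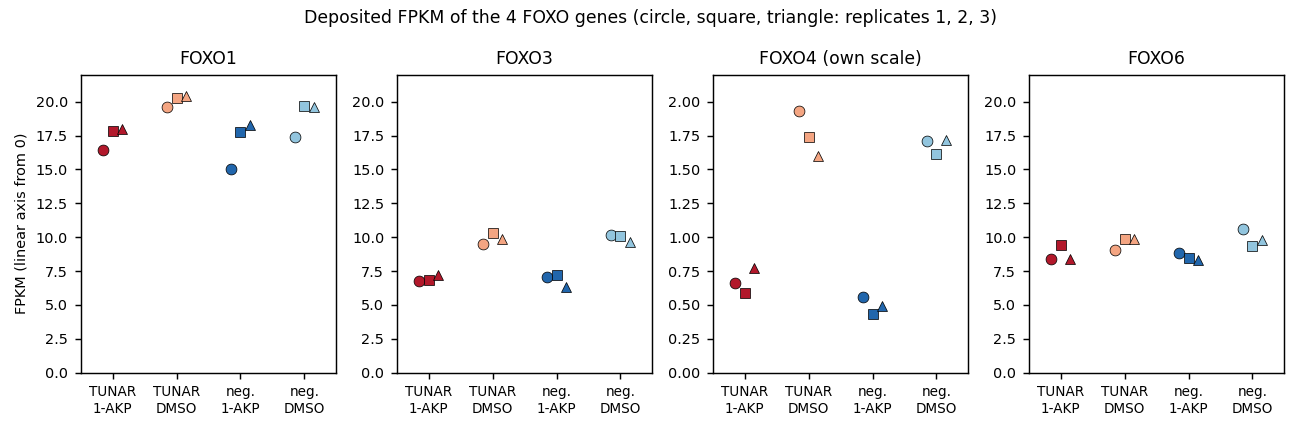
Deposited FPKM of FOXO1, FOXO3, FOXO4 and FOXO6 in the 12 libraries, by siRNA (TUNAR or negative) and treatment; FOXO4 has an axis of its own. FOXO3 and FOXO4 lie lower in every 1-AKP library than in every DMSO library of the same siRNA, while FOXO1 overlaps between treatments with negative siRNA.

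Among the FOXO factors, FOXO4 (Entrez gene 4303) showed the largest difference with 1-AKP. FOXO4 had 2.25, 2.03 and 2.47 CPM with TUNAR siRNAs and 1-AKP, and 6.41, 5.89 and 5.39 CPM with TUNAR siRNAs and DMSO. Under the negative siRNA FOXO4 had 1.90, 1.39 and 1.65 CPM in 1-AKP, against 5.68, 5.42 and 5.76 CPM in DMSO. Every 1-AKP library was below every DMSO library, by a wide margin relative to the spread. The level in 1-AKP was 38.2% of that in DMSO with TUNAR siRNAs and 29.3% with negative siRNA, on mean CPM. The fitted log2 fold changes were -1.39 (SE 0.145) and -1.77 (SE 0.152). These rest on 22 to 39 counts per library in 1-AKP and 86 to 102 in DMSO.

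FOXO3 (Entrez gene 2309), the FOXO factor best known for quiescence and longevity, was lower by a smaller amount. FOXO3 had 50.4, 50.9 and 53.8 CPM with TUNAR siRNAs and 1-AKP, and 69.9, 76.1 and 73.0 CPM with TUNAR siRNAs and DMSO. The negative siRNA libraries had FOXO3 at 52.6, 53.7 and 47.3 CPM in 1-AKP, against 74.1, 74.1 and 70.9 CPM in DMSO. The treatments did not overlap with either siRNA, and the log2 fold changes were -0.50 and -0.51 (SE 0.0588 each). FOXO3 shares sequence with a near-identical copy, FOXO3B, and its expected counts are not whole, so reads were split between genes. FOXO3B lay at 13.1 to 18.4 CPM in 1-AKP and 14.4 to 18.7 CPM in DMSO, which overlap. Summed over both genes, the level was 68.2 ± 4.19 CPM in 1-AKP against 88.8 ± 3.72 CPM in DMSO with TUNAR siRNAs, and 68.8 ± 2.71 CPM in 1-AKP against 89.8 ± 2.69 CPM in DMSO with negative siRNA (SD, n = 3 each).

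FOXO1 (Entrez gene 2308) differed least. FOXO1 had 95.8, 104 and 105 CPM with TUNAR siRNAs and 1-AKP, and 113, 117 and 118 CPM with TUNAR siRNAs and DMSO. FOXO1 with negative siRNA had 87.2, 103 and 106 CPM in 1-AKP, against 99.4, 113 and 113 CPM in DMSO, and these ranges overlap. The log2 fold changes were -0.19 (SE 0.0753) and -0.13 (SE 0.0754). Within each replicate number FOXO1 was lower in 1-AKP in all 6 pairs, by 0.08 to 0.23 on the log2 scale.

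Of the target genes, FBXO32 (Entrez gene 114907) stood furthest down. It encodes atrogin-1, a subunit of a ubiquitin ligase known from muscle wasting, where it is a standard readout of FOXO activity. FBXO32 had 0.708, 1.14 and 0.761 CPM with TUNAR siRNAs and 1-AKP, and 3.77, 3.38 and 4.64 CPM with TUNAR siRNAs and DMSO. Under negative siRNA the values were 1.01, 0.567 and 0.763 CPM in 1-AKP, against 3.75, 4.30 and 4.63 CPM in DMSO. The highest 1-AKP library was far below the lowest DMSO library. The log2 fold changes were -2.16 (SE 0.238) and -2.42 (SE 0.240), ranks 9 and 8 from the lowest fold among 15990 genes. FBXO32 was scarce throughout, with 9 to 18 counts per library in 1-AKP and 54 to 74 in DMSO, and was the lowest of the 10 genes in FPKM in every group.

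KLHL24 (Entrez gene 54800), which encodes a Kelch-repeat adaptor for a cullin ubiquitin ligase, was also lower, from a higher level. KLHL24 had 18.0, 15.6 and 12.1 CPM with TUNAR siRNAs and 1-AKP, and 52.9, 43.5 and 39.6 CPM with TUNAR siRNAs and DMSO. The negative siRNA libraries had 17.4, 13.1 and 11.3 CPM in 1-AKP, against 50.1, 43.0 and 36.9 CPM in DMSO. The treatments did not overlap, and replicate 1 was the highest library in each of the 4 groups. The log2 fold changes were -1.57 (SE 0.185) and -1.64 (SE 0.187). Its expected counts were not whole, so some reads were shared with other genes or could not be placed uniquely.

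CCNG2 (Entrez gene 901) encodes cyclin G2, an atypical cyclin linked to cell-cycle arrest. CCNG2 had 40.8, 22.7 and 21.8 CPM with TUNAR siRNAs and 1-AKP, and 72.2, 44.0 and 47.6 CPM with TUNAR siRNAs and DMSO. CCNG2 with negative siRNA had 38.5, 21.8 and 19.0 CPM in 1-AKP, against 71.9, 44.4 and 42.4 CPM in DMSO. Replicate 1 was far above the others in all 4 groups, yet the treatments did not overlap. The log2 fold changes were -0.94 (SE 0.348) and -1.0 (SE 0.350), and the wide errors come with this split between replicates. Within replicate numbers the log2 ratios were even, from -0.82 to -1.16 over the 6 pairs.

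TXNIP (Entrez gene 10628) encodes a thioredoxin-binding arrestin that limits glucose uptake and is strongly glucose-responsive in beta cells. TXNIP had 11.8, 6.90 and 8.19 CPM with TUNAR siRNAs and 1-AKP, and 13.6, 9.08 and 9.09 CPM with TUNAR siRNAs and DMSO. Under negative siRNA the values were 8.09, 6.37 and 4.20 CPM in 1-AKP, against 13.9, 9.71 and 7.14 CPM in DMSO. TXNIP was the only one of the 10 genes whose treatments overlapped with both siRNAs. The log2 fold changes were -0.24 (SE 0.297) and -0.72 (SE 0.308). They were -0.02 without replicate 1 of TUNAR siRNAs with DMSO and -0.43 without replicate 1 of negative siRNA with DMSO. Within replicate numbers the ratios were -0.15 to -0.39 with TUNAR siRNAs and -0.61 to -0.78 with negative siRNA.

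PDK4 (Entrez gene 5166) encodes a mitochondrial kinase that switches off pyruvate dehydrogenase and so spares glucose. PDK4 had 3.99, 3.04 and 2.47 CPM with TUNAR siRNAs and 1-AKP, and 5.78, 4.70 and 5.33 CPM with TUNAR siRNAs and DMSO. The negative siRNA libraries had 2.91, 3.28 and 3.05 CPM in 1-AKP, against 4.43, 4.42 and 3.88 CPM in DMSO. The treatments did not overlap, and the log2 fold changes were -0.73 (SE 0.168) and -0.46 (SE 0.172). SESN1 (Entrez gene 27244), a stress-inducible inhibitor of mTORC1 signalling, lay at 39.6 to 43.6 CPM in 1-AKP against 49.5 to 50.8 CPM in DMSO with TUNAR siRNAs. Under negative siRNA it lay at 38.0 to 40.7 CPM in 1-AKP against 46.1 to 51.5 CPM in DMSO, again with no overlap. Its log2 fold changes were -0.27 (SE 0.0586) and -0.32 (SE 0.0588). The SESN1 locus overlaps ARMC2, and the library kit as described does not mark strand, so reads of overlapping transcripts cannot be told apart.

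BCL2L11 (Entrez gene 10018) encodes BIM, a trigger of mitochondrial cell death and a well-known FOXO3 target. BCL2L11 had 68.0, 65.2 and 63.6 CPM with TUNAR siRNAs and 1-AKP, and 74.7, 75.9 and 76.0 CPM with TUNAR siRNAs and DMSO. BCL2L11 with negative siRNA had 66.5, 64.7 and 62.8 CPM in 1-AKP, against 73.3, 68.4 and 70.5 CPM in DMSO. The treatments did not overlap but the differences were small, with log2 fold changes of -0.20 (SE 0.0482) and -0.13 (SE 0.0483). As for KLHL24, the expected counts were not whole, so some reads were shared with other genes or could not be placed uniquely. The abundant target genes SESN1 and BCL2L11 thus differed little, and the scarce FBXO32 differed most. The difference did not follow the level throughout. PDK4 was scarcer than KLHL24 in every group yet had smaller log2 fold changes, -0.73 against -1.57 with TUNAR siRNAs and -0.46 against -1.64 with negative siRNA.

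**Figure D2:**
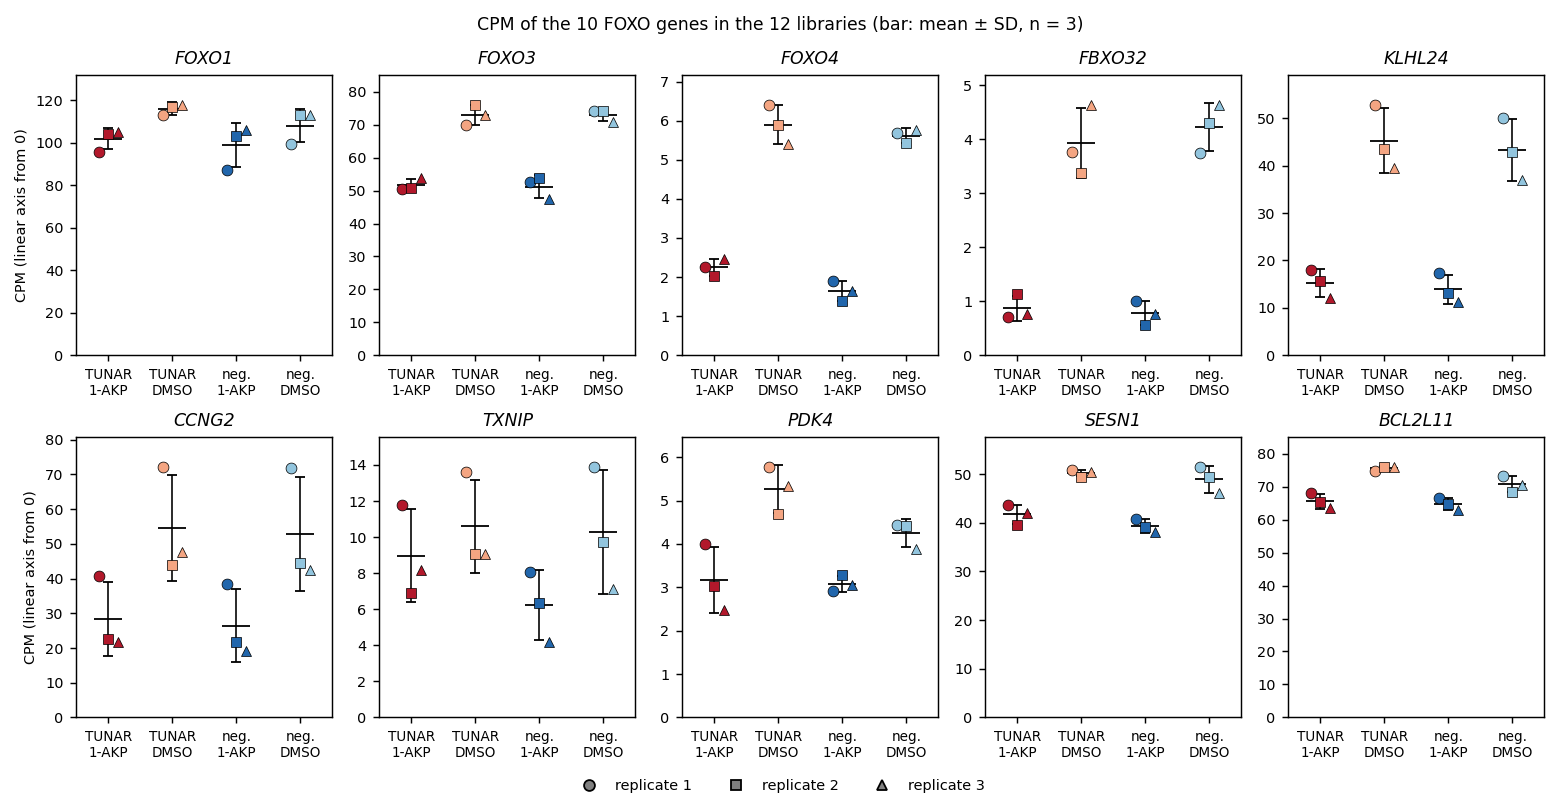
CPM of the 10 genes in each of the 12 libraries on linear axes from 0, by siRNA (TUNAR or negative, neg.) and treatment; symbols mark the replicate number, and bars give the mean ± SD of 3 libraries. FOXO4, FBXO32 and KLHL24 separate widely between 1-AKP and DMSO, and replicate 1 stands high for CCNG2 and TXNIP in every group.

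Over the 10 genes, each was lower in 1-AKP in all 6 pairs of libraries with the same number, those of passage 74 and of passage 75 alike. The share of all tested genes that were so was not computed, and the number was not taken to pair libraries across treatments. Every 1-AKP library lay below every DMSO library for 9 of the 10 with TUNAR siRNAs, where 12% of all tested genes did so, and for 8 of the 10 with negative siRNA, where 12.5% did. At an adjusted p below 0.05 over all tested genes, edgeR placed 7 of the 10 in the lower direction with TUNAR siRNAs, where the background was 3.79% lower and 3.72% higher. Without 1 of 4 libraries this number was 4: replicate 1 or 3 of TUNAR siRNAs with DMSO, or replicate 2 or 3 of TUNAR siRNAs with 1-AKP. With negative siRNA it placed 5 of the 10, where the background was 3.76% lower and 3.54% higher. With library size alone as the scaling, the split of all genes with negative siRNA was 414 higher and 702 lower, against 566 higher and 602 lower as reported. Because the genes were chosen on these differences, nothing is read from their share.

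**Figure D3:**
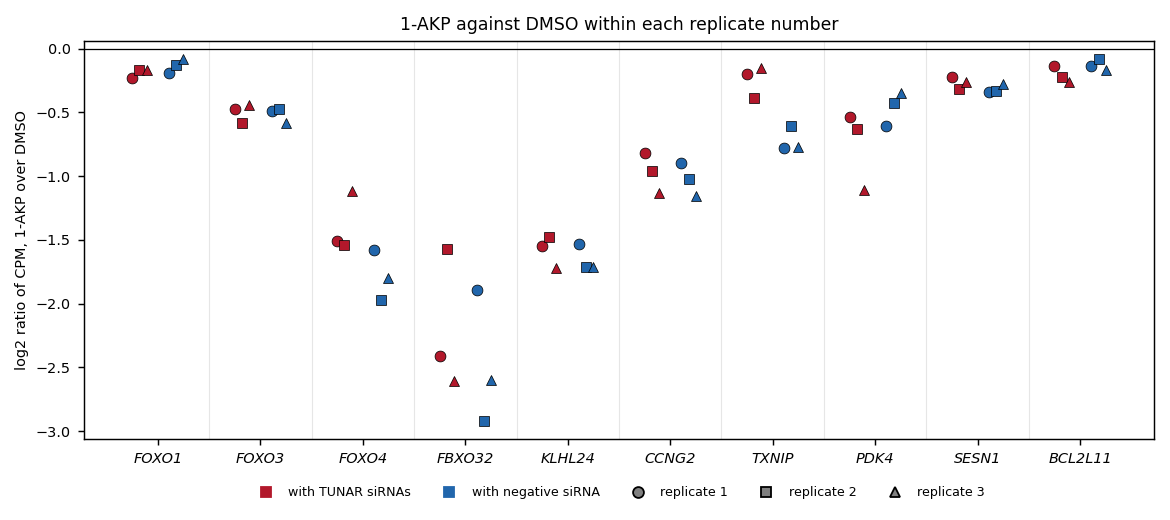
Log2 ratio of CPM, 1-AKP over DMSO, within each replicate number (symbols) for the 10 genes, with TUNAR siRNAs in red and negative siRNA in blue. All points lie below 0, from -2.92 for FBXO32 to -0.08 for FOXO1 and BCL2L11.

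Replicate 1 stood above replicates 2 and 3 for a subset of the targets. The mean log2 difference over the 4 groups was 0.79 for CCNG2 (0.66 to 0.92), 0.65 for TXNIP (0.57 to 0.74) and 0.40 for KLHL24 (0.33 to 0.51). For the other 7 genes it lay between -0.16 and 0.18. Of all tested genes, 6.37% differed by at least 0.5 in either direction, around a median of 0.00. The same libraries were higher in G2/M genes, which mark dividing cells, with a median of 0.57 over 10 genes. The part of cell division in the levels of CCNG2, TXNIP and KLHL24 was not tested. None of these 10 G2/M genes passed the threshold with 1-AKP in edgeR's test with either siRNA, and none had an unadjusted p below 0.05. The replicate 1 split of these genes is part of the spread in that test, which could therefore miss small differences. In every pair of libraries with the same number, TOP2A, CENPF and CCNA2 were lower in 1-AKP, and CCNB1, CDK1, MKI67 and AURKA were higher. CCNB2 was lower too, except in replicate 2 with negative siRNA, at 59.2 CPM in both treatments. These genes are named for their even direction, after their values were seen. With all 4 replicate 1 libraries left out, the number of the 10 FOXO genes past the threshold was 9 with TUNAR siRNAs and 7 with negative siRNA. All of these were lower, as were 8.26% of all tested genes with TUNAR siRNAs and 7.71% with negative siRNA in that fit, against 3.79% and 3.76% with all 12 libraries, so nothing is read from the higher numbers.

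The siRNA comparisons were not used to choose the genes and were tested. They share libraries with the 1-AKP comparisons that were used, so they are not independent of that choice. In 1-AKP, none of the 10 genes passed an adjusted p of 0.05 between TUNAR siRNAs and negative siRNA in edgeR's quasi-likelihood test, in which 0% of the 15990 tested genes passed. TUNAR itself did not pass in that test (adjusted p = 0.159), so not passing does not show that a gene was unchanged. At an unadjusted p below 0.05 there was 1 of the 10, FOXO4, where 743 of all 15990 tested genes lay. DESeq2 called none of the 10, and 15 of the 11055 genes it tested. FOXO4 was higher in each TUNAR siRNA library than in each negative siRNA library, with a log2 fold change of 0.45 (SE 0.168) and an adjusted p of 1.00. It was the only one of the 10 whose TUNAR siRNA libraries were all above the negative siRNA libraries in 1-AKP, where 4.50% of all tested genes did so. In absolute terms this was 2.03 to 2.47 CPM with TUNAR siRNAs against 1.39 to 1.90 CPM with negative siRNA. At passage 74 alone the difference was 0.38, and passage 75 has 1 library per group.

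The replicate numbers paired the libraries across siRNAs, and with the number as a block TXNIP passed the threshold in 1-AKP. It was higher with TUNAR siRNAs than with negative siRNA by 0.53 on the log2 scale (SE 0.125, adjusted p = 0.0111 in edgeR), and 2.77% of all tested genes passed in that fit. TXNIP was higher in 3 of 3 pairs, with log2 ratios of 0.55 and 0.12 at passage 74 and 0.96 at passage 75. Without the block its fold change had an SE of 0.312 and an adjusted p of 1.00. The call with the block was lost when the libraries numbered 1 were left out (adjusted p = 0.112) or those numbered 3 (adjusted p = 0.243). It was kept without those numbered 2 (adjusted p = 0.0152).

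In DMSO, none of the 10 genes passed between TUNAR siRNAs and negative siRNA in edgeR without the block, where 0.0125% of all tested genes passed. TUNAR itself did not pass there either (adjusted p = 0.248). None of the 10 had an unadjusted p below 0.05 in that fit, where 776 of all 15990 tested genes lay. DESeq2 called none of the 10, and 21 of the 11887 genes it tested. With the replicate block 3.05% of all tested genes passed and again none of the 10. The fold change of PDK4 was the largest of the 10, at 0.31 on the log2 scale (SE 0.163, adjusted p = 1.00). PDK4 and BCL2L11 were the only 2 of the 10 whose TUNAR siRNA libraries all lay above the negative siRNA libraries, where 5.30% of all tested genes did so. PDK4 had 4.70 to 5.78 CPM with TUNAR siRNAs against 3.88 to 4.43 CPM with negative siRNA. BCL2L11 had 74.7 to 76.0 CPM with TUNAR siRNAs against 68.4 to 73.3 CPM with negative siRNA. FOXO1 had a log2 fold change of 0.10 (SE 0.0751) and FBXO32 of -0.10 (SE 0.194), both within the spread of the fit without the block. With the block FOXO1 had an SE of 0.0389 and an unadjusted p of 0.0162 in edgeR (adjusted p = 0.205). BCL2L11 had an unadjusted p of 0.0282 in the same fit (adjusted p = 0.272), where 2248 of all 15990 tested genes lay below 0.05.

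**Figure D4:**
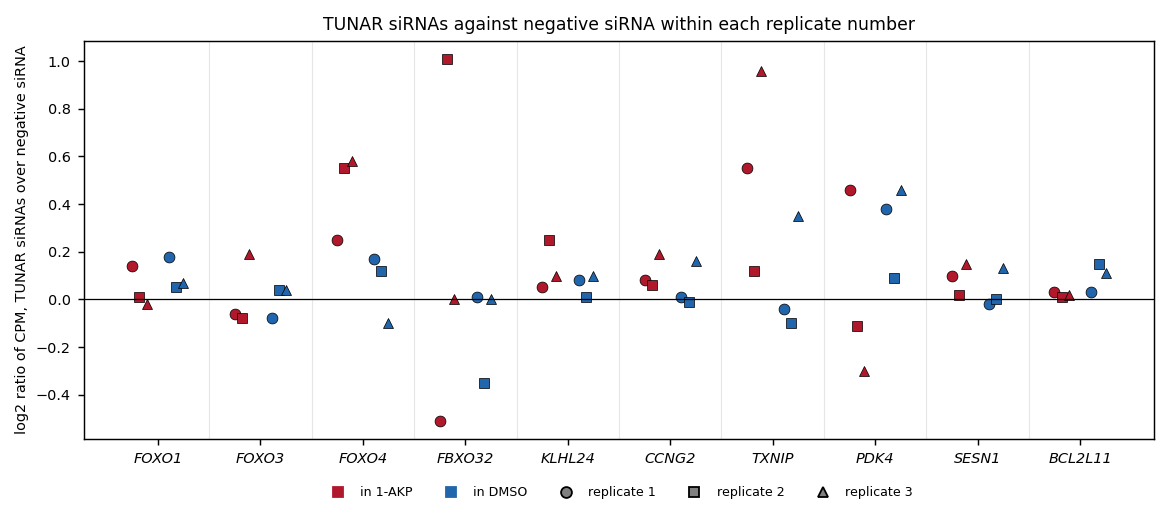
Log2 ratio of CPM, TUNAR siRNAs over negative siRNA, within each replicate number (symbols) for the 10 genes, in 1-AKP (red) and in DMSO (blue). In 1-AKP the FOXO4 points lie at 0.25 to 0.58 and the TXNIP points at 0.12 to 0.96, and FBXO32, with few counts, scatters most.

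Whether the 1-AKP effect differed between the siRNAs was tested directly as an interaction. None of the 10 genes passed in edgeR, where 0% of all tested genes passed and 170 had an unadjusted p below 0.05. In that fit none of the 10 had an unadjusted p below 0.05, and neither DESeq2 nor the fit with the replicate block called any gene. The largest differences, TUNAR siRNAs minus negative siRNA, were 0.48 for TXNIP (SE 0.428), 0.38 for FOXO4 (SE 0.213) and -0.27 for PDK4 (SE 0.241). With the replicate block TXNIP had an SE of 0.166 and an unadjusted p of 0.00688, with an adjusted p of 1.00 in edgeR. It was the only one of the 10 below 0.05 unadjusted in that fit, where 514 of all 15990 tested genes lay. At passage 74 alone, without the block, these differences were 0.43 for TXNIP, 0.23 for FOXO4 and -0.06 for PDK4. These comparisons share groups of libraries with those above.

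Other genes known as FOXO targets, together with the FOXO factor FOXO6, were looked at as a list of 33. Of these, 31 were in the tables and 27 were tested. This list and those below were drawn up with earlier results of these data known, so their counts and medians are a description. With 1-AKP, 7 fell and 1 rose with TUNAR siRNAs, and 7 fell and 1 rose with negative siRNA. Of all tested genes, 3.79% fell and 3.72% rose with TUNAR siRNAs, and 3.76% fell and 3.54% rose with negative siRNA. The median log2 fold change was -0.15 over the 27 with TUNAR siRNAs and -0.17 with negative siRNA, against -0.001 and -0.003 over all tested genes. Among those that fell, genes of the insulin and growth-factor pathway were INSR, the insulin receptor (-0.46, SE 0.0475, adjusted p = 0.000211 in edgeR with TUNAR siRNAs, and -0.49, SE 0.0476, adjusted p = 0.000129 with negative siRNA), and IGF1R, the IGF-1 receptor (-0.42 and -0.47). IRS2, an adaptor of both receptors, fell too (-0.39 and -0.43). Autophagy and mitophagy genes were ULK1, the kinase that starts autophagy (-0.77, SE 0.0633, adjusted p = 4.69e-05 with TUNAR siRNAs, and -0.72, SE 0.0635, adjusted p = 7.58e-05 with negative siRNA), and PINK1, the kinase that marks damaged mitochondria (-0.63 and -0.70).

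These are sizeable levels: ULK1 lay at 68.4, 77.6 and 74.1 CPM with TUNAR siRNAs and 1-AKP, against 122, 130 and 124 CPM with TUNAR siRNAs and DMSO. INSR lay at 61.4, 57.4 and 59.1 CPM with negative siRNA and 1-AKP, against 87.1, 82.2 and 81.0 CPM with negative siRNA and DMSO. Both genes were apart between the treatments. The calls of INSR, IGF1R, IRS2, ULK1 and PINK1 held without any 1 of the 12 libraries.

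Growth-restraint genes that fell were RBL2, a relative of the retinoblastoma protein (-0.32 and -0.29), and MXI1, an antagonist of MYC. MXI1 fell with TUNAR siRNAs (-1.20, SE 0.181, adjusted p = 0.00221 in edgeR) at 1.97 to 2.12 CPM in 1-AKP against 4.70 to 4.78 CPM in DMSO. The negative siRNA libraries had 1.72 to 2.71 CPM in 1-AKP against 2.75 to 3.75 CPM in DMSO, and MXI1 did not pass there. GABARAPL1, which encodes an autophagosome protein, fell with negative siRNA (-1.32, SE 0.359, adjusted p = 0.0439 in edgeR). Its counts were few, at 0.694 to 0.948 CPM in 1-AKP against 1.5 to 3.25 CPM in DMSO. With TUNAR siRNAs it lay at 0.761 to 1.48 CPM in 1-AKP against 1.88 to 2.77 CPM in DMSO, without overlap, and did not pass. The GABARAPL1 call with negative siRNA held only without replicate 1 of TUNAR siRNAs with 1-AKP, replicate 1 of TUNAR siRNAs with DMSO or replicate 3 of negative siRNA with DMSO. It was lost without any other library (adjusted p up to 0.179). The call of RBL2 was lost without 4 libraries with TUNAR siRNAs (replicates 2 and 3 with 1-AKP, 1 and 2 with DMSO; adjusted p up to 0.0890). In the negative siRNA groups it was lost without any of the same replicates (adjusted p up to 0.126).

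DEPP1 was the only gene of this list that rose. It encodes a small protein whose gene is induced by FOXO factors and by progesterone. DEPP1 had 30.8, 35.9 and 35.7 CPM with TUNAR siRNAs and 1-AKP, and 17.1, 17.6 and 18.7 CPM with TUNAR siRNAs and DMSO. Under negative siRNA the values were 23.9, 31.7 and 31.2 CPM in 1-AKP, against 15.2, 18.9 and 19.5 CPM in DMSO. The treatments did not overlap, and the log2 fold changes were 0.94 (SE 0.120, adjusted p = 0.000759 in edgeR) and 0.69 (SE 0.121, adjusted p = 0.00534). DEPP1 thus went the other way from the 10 genes, and its calls held without any 1 library. With the replicate block DEPP1 was also higher with TUNAR siRNAs than with negative siRNA in 1-AKP, by 0.24 (SE 0.0635, adjusted p = 0.0279), and EIF4EBP1, a translation repressor, was lower in DMSO by 0.21 (adjusted p = 0.0324). IRS2, RBL2, GABARAPL1, MXI1 and EIF4EBP1 are named beside the genes with the lowest p because the count is small, after their values were seen.

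Upstream of FOXO, 35 kinases, binding proteins and modifiers were looked at, of which 34 were tested. With 1-AKP, 4 fell and 1 rose with TUNAR siRNAs, and likewise 4 fell and 1 rose with negative siRNA, against the shares of all tested genes given above for the other targets. Their medians were 0.01 and 0.04. RICTOR, the defining subunit of mTORC2, the complex that activates AKT, fell by 0.46 (SE 0.0527, adjusted p = 0.000353 in edgeR) with TUNAR siRNAs and by 0.52 (SE 0.0527, adjusted p = 0.000175) with negative siRNA. SGK2, a kinase related to AKT, rose by 0.31 and 0.32. MAPK8, which encodes the stress kinase JNK1, fell by 0.34 and 0.35, PIK3CA, a catalytic subunit of PI3-kinase, fell by 0.33 with TUNAR siRNAs, and MTOR fell by 0.14 with negative siRNA.

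The calls of RICTOR held without any 1 of the 12 libraries. Without 1 library, 2 to 4 of the list fell and 0 to 2 rose. The SGK2 call with TUNAR siRNAs was lost without replicate 2 or 3 with 1-AKP or 1 or 3 with DMSO (adjusted p up to 0.0968). With negative siRNA it was lost without replicate 2 or 3 with 1-AKP or 1 or 2 with DMSO (up to 0.0944). That of PIK3CA was lost without replicate 1 or 2 of either TUNAR siRNA group (up to 0.0860). The MAPK8 call with TUNAR siRNAs held only without replicate 1 of TUNAR siRNAs with 1-AKP, replicate 1 or 3 of negative siRNA with 1-AKP or replicate 1 of negative siRNA with DMSO (otherwise up to 0.153). With negative siRNA it held only without a library of TUNAR siRNAs with 1-AKP, replicate 1 of TUNAR siRNAs with DMSO or replicate 1 of negative siRNA with 1-AKP (otherwise up to 0.154). The MTOR call held only without a library of TUNAR siRNAs with 1-AKP or replicate 1 of TUNAR siRNAs with DMSO (otherwise up to 0.105).

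**Figure D5:**
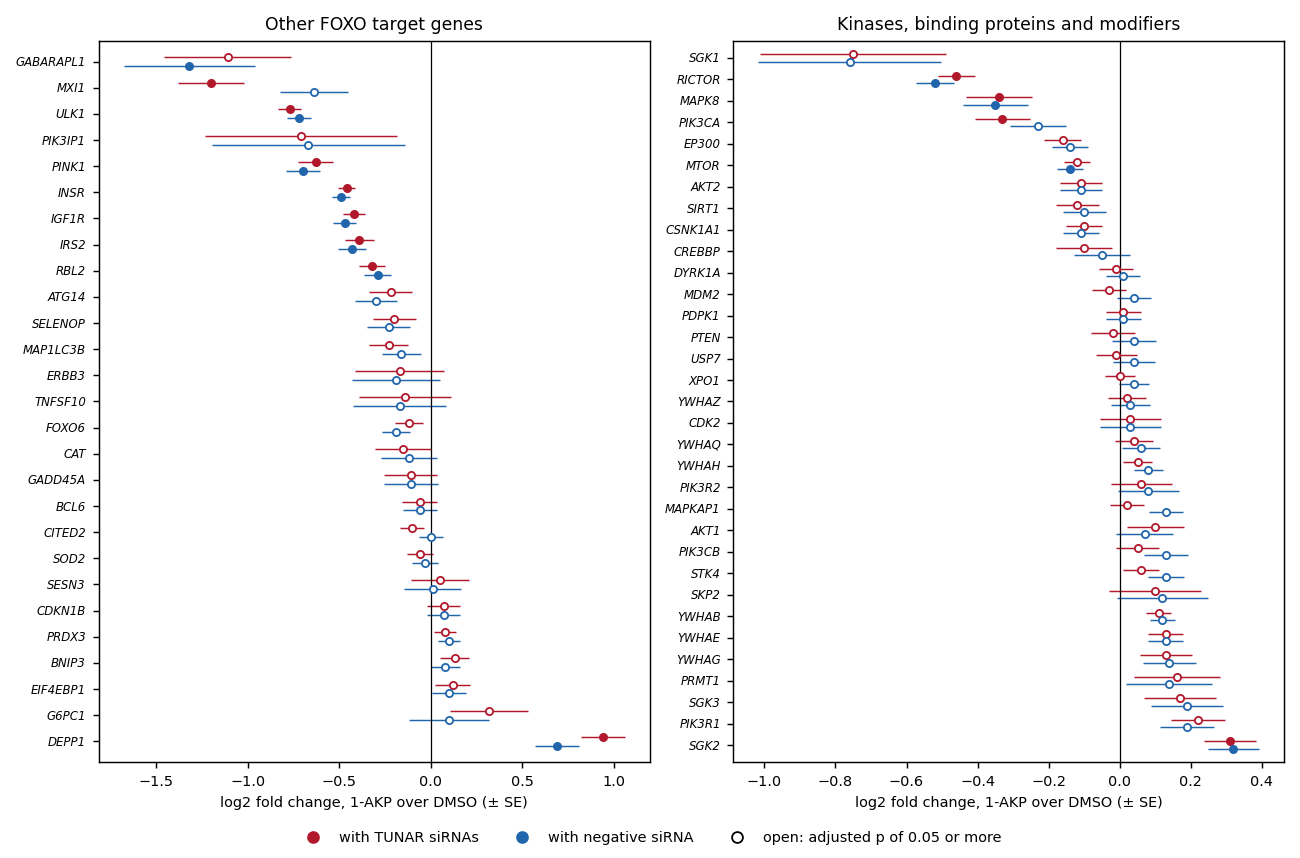
Log2 fold change, 1-AKP over DMSO, with its SE for tested genes of 2 lists, with TUNAR siRNAs (red, upper of each pair) and negative siRNA (blue): other FOXO targets and FOXO6 on the left, kinases, binding proteins and modifiers on the right. Filled points passed an adjusted p of 0.05; DEPP1 and SGK2 are the filled points to the right of 0, and ULK1, INSR and RICTOR are filled on the left with both siRNAs.

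Relatives of the target genes and partners of TXNIP were followed in the same way. Of 18 relatives, 16 were tested. With TUNAR siRNAs 2 fell, where 3.79% of all tested genes did, and with negative siRNA 1 fell, where 3.76% did. PDK3, a kinase of the same family as PDK4, fell with both siRNAs (-0.41, SE 0.0520, and -0.46, SE 0.0523), and PDK2 fell with TUNAR siRNAs (-0.76, SE 0.206, adjusted p = 0.0451 in edgeR). The PDK3 calls held without any 1 library and that of PDK2 held only without replicate 1 or 3 of a negative siRNA group (otherwise adjusted p up to 0.165). With the replicate block PDK3 was higher with TUNAR siRNAs than with negative siRNA in 1-AKP, by 0.15 (SE 0.0378, adjusted p = 0.0185). Of 11 TXNIP partners and carbohydrate-response factors, 1 fell and 2 rose with TUNAR siRNAs, where 3.79% and 3.72% of all tested genes did so, and 1 fell with negative siRNA, where 3.76% did. MLXIPL, which encodes the glucose-responsive factor ChREBP that activates TXNIP, fell by 0.40 with TUNAR siRNAs and by 0.52 with negative siRNA. With TUNAR siRNAs KLF10, a zinc-finger transcription factor, rose by 0.45 and TXN, which encodes thioredoxin, by 0.25. The MLXIPL call with TUNAR siRNAs was lost without replicate 2 of TUNAR siRNAs with DMSO (adjusted p = 0.0657), and that of KLF10 without replicate 3 of the same group (adjusted p = 0.0577). That of TXN was lost without replicate 1 or 3 of TUNAR siRNAs with 1-AKP, or replicate 2 or 3 of either DMSO group (adjusted p up to 0.147).

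SESN1 is also a known p53 target, and beta-catenin is a protein whose breakdown GSK3 promotes, so lists of p53 and beta-catenin targets were set beside the FOXO genes. Of 17 tested p53 targets none passed with 1-AKP in edgeR with either siRNA, and DESeq2 called 1 in each. At an unadjusted p below 0.05 in edgeR there were 3 with TUNAR siRNAs and 1 with negative siRNA. Of all 15990 tested genes, 3421 and 3345 lay below it. The p53 target TP53INP1 had a log2 fold change of -0.87 with TUNAR siRNAs (adjusted p = 0.0647 in edgeR). At 43.5 to 71.6 CPM in 1-AKP against 85.6 to 115 CPM in DMSO, its treatments did not overlap. With negative siRNA it was -0.86 (adjusted p = 0.0718), again without overlap. Of 7 tested beta-catenin targets none passed in edgeR or DESeq2, and 0 with TUNAR siRNAs and 1 with negative siRNA had an unadjusted p below 0.05. Among the beta-cell markers NKX6-1, a factor of mature beta cells, fell by 0.48 (SE 0.0737, adjusted p = 0.00254 in edgeR) with TUNAR siRNAs and by 0.52 (SE 0.0732, adjusted p = 0.00159) with negative siRNA. IAPP, the beta-cell hormone amylin, fell by 0.80 with negative siRNA (adjusted p = 0.0494), a call that held only without replicate 1 of any group other than negative siRNA with DMSO (otherwise adjusted p up to 0.176). With TUNAR siRNAs IAPP lay at 42.3 to 60.9 CPM in 1-AKP against 75.5 to 104 CPM in DMSO, without overlap, and did not pass. The largest difference among the 10 markers was in the other direction. G6PC2, an islet glucose-6-phosphatase subunit, had 35.4, 144 and 192 CPM with TUNAR siRNAs and 1-AKP, and 7.35, 27.7 and 45.3 CPM with TUNAR siRNAs and DMSO. G6PC2 with negative siRNA had 38.1, 153 and 223 CPM in 1-AKP, against 6.43, 26.5 and 44.1 CPM in DMSO. Each 1-AKP library was above the DMSO library of the same number, and replicate 1 was the lowest in every group. With this spread the log2 fold changes of 2.2 (SE 0.932) and 2.43 (SE 0.937) did not pass (adjusted p = 0.213 and 0.176 in edgeR), while with the replicate block they did (2.22, adjusted p = 1.7e-25, and 2.43, adjusted p = 7.11e-27). G6PC2 is named for its size, after its values were seen. The part of a change in beta-cell state in the FOXO gene levels was not tested.

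The pattern over the 12 libraries was also compared between genes, as the root mean square difference of log2 CPM after centring each gene on its own mean. Within the 10 genes KLHL24 and FOXO4 were nearest to each other (0.245), as were CCNG2 and TXNIP (0.337) and SESN1 and BCL2L11 (0.081). Among other genes, BCAS3 was nearest to both FOXO4 (0.228) and KLHL24 (0.207), and FRAT1, which encodes a GSK3-binding protein, was among the nearest 3 for FOXO4 (0.257), KLHL24 (0.253) and FBXO32 (0.383). ABTB1 was nearest to FBXO32 (0.368). The nearest to CCNG2 was PNRC1 (0.112), followed by UBALD2 and TP53INP1. MAF1, a repressor of RNA polymerase III, was nearest to FOXO3 (0.052), RAB40B to PDK4 (0.144) and CLMN to TXNIP (0.220). These likenesses include the 1-AKP difference by which the 10 genes were chosen and are a description of 12 libraries.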

How the data were processed

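Polyadenylated RNA was sequenced from 12 libraries of EndoC-βH1 cells, 3 in each of 4 groups, taken from the sample labels. The authors deposited an expected count per gene, which is an unnormalised estimate of its reads, per the file headers. The deposited tables also hold FPKM, scaled by transcript length and library size. BWA, Bowtie, RSEM and the build GRCh37/hg19 are named in the submitters' processing notes, with no role or order; the annotation is not given in the sources used here. Random-hexamer libraries without strand marking are described, per the labels' protocols.

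A gene missing from a library's table was set to 0. Expected counts were rounded to whole numbers. Entrez IDs were paired with symbols for 21386 of 21508. Genes with a count of at least 10 in enough libraries and at least 15 in all were kept (15990 genes, 99.9% of counts). edgeR 4.0.16 in R 4.3.3 fitted 4 group means with TMM factors of 0.990 to 1.014 and a robust quasi-likelihood test with 8 residual degrees of freedom. The p-values were adjusted by Benjamini-Hochberg over all tested genes, and called means an adjusted p below 0.05. CPM are the rounded counts over the TMM-scaled totals. DESeq2 1.42.0, limma 3.58.1 on log2(FPKM + 1), other scalings, no filter, passage, single libraries left out and a replicate block were alternatives; the omission of all replicate 1 libraries, and the block with each number left out, were added after seeing the data. The test was checked on simulated data. No 2 replicates differed by as little as sampling noise, with chi-square per degree of freedom from 2.35 to 11.6.

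Same-numbered libraries deviated together across siRNAs (r = 0.162 to 0.416 in 1-AKP and 0.178 to 0.376 in DMSO), so the number was taken to pair them there. Across treatments r was 0.063 to 0.407 with TUNAR siRNAs and 0.087 to 0.427 with negative siRNA. It was highest for replicate 1 with either siRNA, so those libraries deviated together across treatments too. The lowest r, that of replicate 2, was under the 0.1 required, and the block is then only an alternative.

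The 10 genes and all gene lists were chosen with earlier results of these data known. Named are the 10 genes, TUNAR, up to 4 called genes with the lowest p per list and direction, and the 3 genes with the nearest pattern to each of the 10 genes whose group means differ by at least 0.5 log2 CPM (not all are printed). A gene of the list of kinases, binding proteins and modifiers enters its counts but is not reported here. Promoter windows come from RefSeq on GRCh38.p14 and were used for sequence only.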

Additional observations from a re-analysis of the deposited data

How the results depend on the processing

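The numbers of genes called with 1-AKP, 1201 with TUNAR siRNAs and 1168 with negative siRNA, moved with the model and the libraries. They were 4335 and 4285 with the replicate block, 67 and 51 at passage 74 only (2 libraries a group), and 2769 and 2559 without all libraries numbered 1. Leaving out 1 library gave 511 to 1284 and 492 to 1389, and the block with replicate number 1, 2 or 3 left out gave 3978, 2966 and 2695 with TUNAR siRNAs and 3824, 2901 and 2706 with negative siRNA. Of the 10 FOXO genes, 7 and 5 were called. With TUNAR siRNAs this was 3 at passage 74 only and 4 to 7 without 1 library (4 to 9 over these and the block with a number left out). With negative siRNA it was 10 with the replicate block, 5 in each case without 1 library and up to 8 for the block with a number left out.

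Between TUNAR siRNAs and negative siRNA in 1-AKP, 0 genes were called in edgeR (743 at an unadjusted p below 0.05), 15 by DESeq2, 1 with no filter, 443 with the replicate block, 45 without all libraries numbered 1, 0 to 3 without 1 library and 306, 130 and 223 for the block without number 1, 2 or 3. Of the 10 genes 0 were called, and 1 with the replicate block (0 to 1 with a number left out). In DMSO 2 genes were called (776 unadjusted), 21 by DESeq2, 1 by limma at either pseudocount, 488 with the replicate block, 0 at passage 74 only, 45 without all libraries numbered 1, 0 to 2 without 1 library and 327, 122 and 243 for the block without number 1, 2 or 3. The interaction gave 0, also by DESeq2 and limma, and 4 to 5 for the block with a number left out.

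In DMSO the uncalled TXNIP difference of 0.04 between siRNAs was -0.06 at passage 74 only and in the block without number 3, -0.16 without replicate 3 of negative siRNA and -0.18 without replicate 1 of TUNAR siRNAs, the lowest of a range that reached 0.34 without 1 library. That of FBXO32, -0.10, was 0.01 in the block without number 2. The replicate block changed no other siRNA call of the 10 genes. Of the values recomputed under alternatives, 1477 kept direction and side of the threshold, 137 no longer passed it, 27 newly passed it and 5 changed sign. The causes were not tested. The counts of FBXO32, FOXO4 and PDK4 limit what can be seen in them.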
